A study of Rattus norvegicus with 9 samples.

Results

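The rows described here are 520 of the 32883 gene rows counted in cultured rat cortical neurons, chosen because their level split the hairpin libraries into 2 sides that cut across the hairpins. Side A held shPum2 replicate 1 and shStau2 replicates 1 and 2. Side B held shPum2 replicates 2 and 3 and shStau2 replicate 3. A row was a member when its mean over the 9 libraries was 10 or more but under 1000 CPM and the lowest CPM of one side was at least 1.5 times the highest CPM of the other. CPM, a level relative to the depth of the library, was the count over the library total without the 1 most abundant row, times 1000000. Of the 6097 rows in that CPM window, 493 were higher on side A and 27 were higher on side B. The sides and the members were chosen on these same values, so the difference between the sides is given as a description, with no test.

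Neurons were kept for 14 days in culture and transduced with lentivirus for the last 4 of them, and 3 libraries were made in each of 3 groups. The groups were shControl, a control hairpin, shPum2, a hairpin labelled as depleting Pum2, and shStau2, a hairpin labelled as depleting Stau2. All 3 groups carried a lentiviral hairpin, and no untransduced culture was analysed here. The labels do not say whether the replicates came from separate cultures or animals, so a spread between libraries may be in part technical.

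Pumilio2 and Staufen2 are RNA-binding proteins found in neuronal RNA granules, the particles that carry mRNAs into dendrites. Pumilio proteins bind a short motif in the untranslated end of target mRNAs and act mostly as repressors of translation and stability. Staufen proteins bind double-stranded stretches of RNA and are known for roles in mRNA transport and decay. A short hairpin RNA lowers its target through the cell's RNA interference machinery.

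The rows carry Ensembl rat identifiers and no symbols, and 0 of them could be matched in the RefSeq gene table at hand, which is of assembly GRCr8. The level of Pum2 and Stau2, the markers of neurons and of other cell types, and the functions and sequences of the members were therefore not examined. At most 2 identifiers are printed in each direction. Libraries held 779386 to 979550 counts in gene rows, 1.76% to 2.14% of the reads listed, while 86.0% to 88.1% were listed as no-feature. The strand on which reads were counted is not given in the sources used here. Whether the counted reads lie on the strand of the mRNA was not tested. A value below is therefore a level of reads assigned to a row, and not shown to be an mRNA level.

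Members higher on side A took a larger part of the counts on that side in every library. As a share of the counts without the most abundant row, the 493 rows held 4.50% in shPum2 replicate 1, 5.08% in shStau2 replicate 1 and 4.42% in shStau2 replicate 2. They held 1.77% in shPum2 replicate 2, 1.78% in shPum2 replicate 3 and 1.18% in shStau2 replicate 3. The 3 control libraries held 3.13%, 3.87% and 3.37%, above all of side B and below all of side A. By hairpin the same share was 2.68% ± 1.57 in shPum2 and 3.56% ± 2.09 in shStau2, against 3.46% ± 0.37 in shControl (mean ± SD, n = 3 each). The SD within each targeting hairpin was larger than any difference between the 3 means. The rule chose rows that differ between libraries of the same targeting hairpin, so these larger SDs are built in.

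The 27 rows higher on side B were a small set in both number and counts. They held 0.215%, 0.234% and 0.221% of the counts in shPum2 replicate 2, shPum2 replicate 3 and shStau2 replicate 3. On side A they held 0.119%, 0.122% and 0.115% in shPum2 replicate 1, shStau2 replicate 1 and shStau2 replicate 2. The control libraries lay between, at 0.176%, 0.150% and 0.142%.

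**Figure D1:**
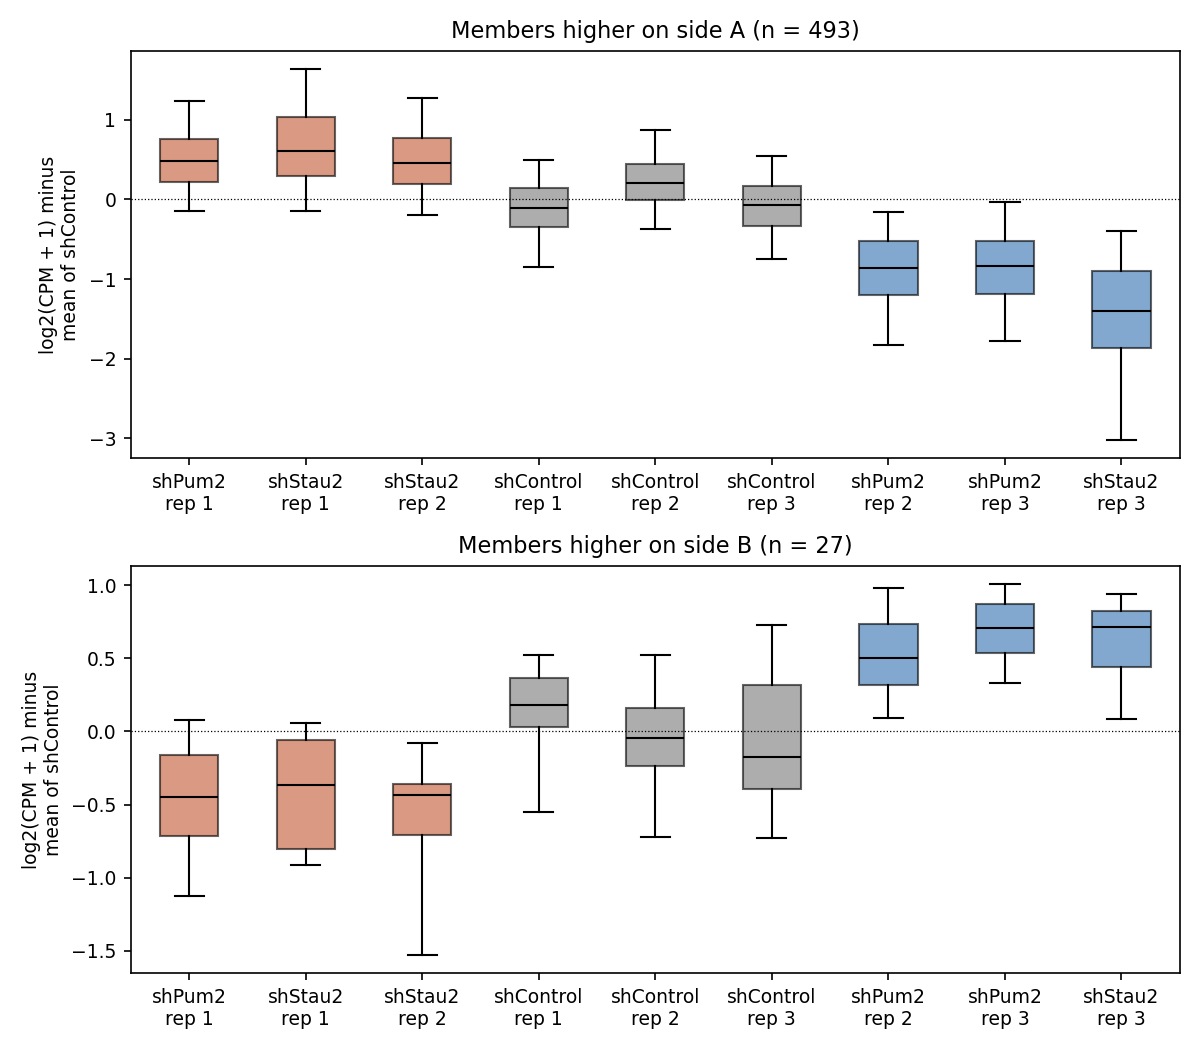
Level of each member in each library, as log2(CPM + 1) minus the mean of the 3 shControl libraries (vertical axis), for the 493 members higher on side A (top) and the 27 higher on side B (bottom). Boxes span the quartiles over members with the median as a line, whiskers the 5th to 95th percentile, with side A in orange, shControl in grey and side B in blue; in the top panel the lowest median is that of shStau2 replicate 3, at -1.40.

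Relative to the control mean, the median member higher on side A stood at 0.48 in shPum2 replicate 1, 0.60 in shStau2 replicate 1 and 0.46 in shStau2 replicate 2 on the log2(CPM + 1) scale. It stood at -0.86 in shPum2 replicate 2, -0.83 in shPum2 replicate 3 and -1.40 in shStau2 replicate 3. Side B lay further from the controls than side A did: the median of side B minus the control mean was -1.06 and that of side A minus the control mean was 0.52. Over all 6097 rows in the CPM window the same medians were -0.15 and 0.03, so the window as a whole was also somewhat lower on side B.

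Within side A the libraries did not keep a fixed order. Of the 493 rows, 217 were highest in shStau2 replicate 1, 155 in shPum2 replicate 1 and 121 in shStau2 replicate 2. The median difference between shPum2 replicate 1 and the mean of the 2 shStau2 libraries was -0.08 on the log2 scale, against 0.08 for all rows in the window. Within side B, shStau2 replicate 3 was the lowest of the 6 hairpin libraries for 316 of the 493 rows, while shPum2 replicate 2 was lowest for 93 and shPum2 replicate 3 for 84. That library was also the lowest of the 6 for 34.6% of all rows in the window.

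The split was therefore of unequal size in the 2 hairpin groups. In shPum2, replicate 1 exceeded the mean of replicates 2 and 3 by a median of 1.31 log2 units (quartiles 1.03 and 1.65) over the members higher on side A. In shStau2, replicates 1 and 2 exceeded replicate 3 by a median of 1.97 (quartiles 1.53 and 2.45). Over all rows in the window the medians were 0.145 in shPum2 (quartiles -0.308 and 0.675) and 0.29 in shStau2 (quartiles -0.36 and 1.164). The shStau2 difference was thus the larger there too. Between libraries of the same hairpin and the same side the members went both ways: shPum2 replicate 3 minus replicate 2 had quartiles of -0.31 and 0.37, and shStau2 replicate 2 minus replicate 1 quartiles of -0.50 and 0.12. Among the 27 rows higher on side B the differences were of like size in both groups, -0.90 for shPum2 replicate 1 against the other two and -0.998 for shStau2 replicates 1 and 2 against replicate 3.

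**Figure D2:**
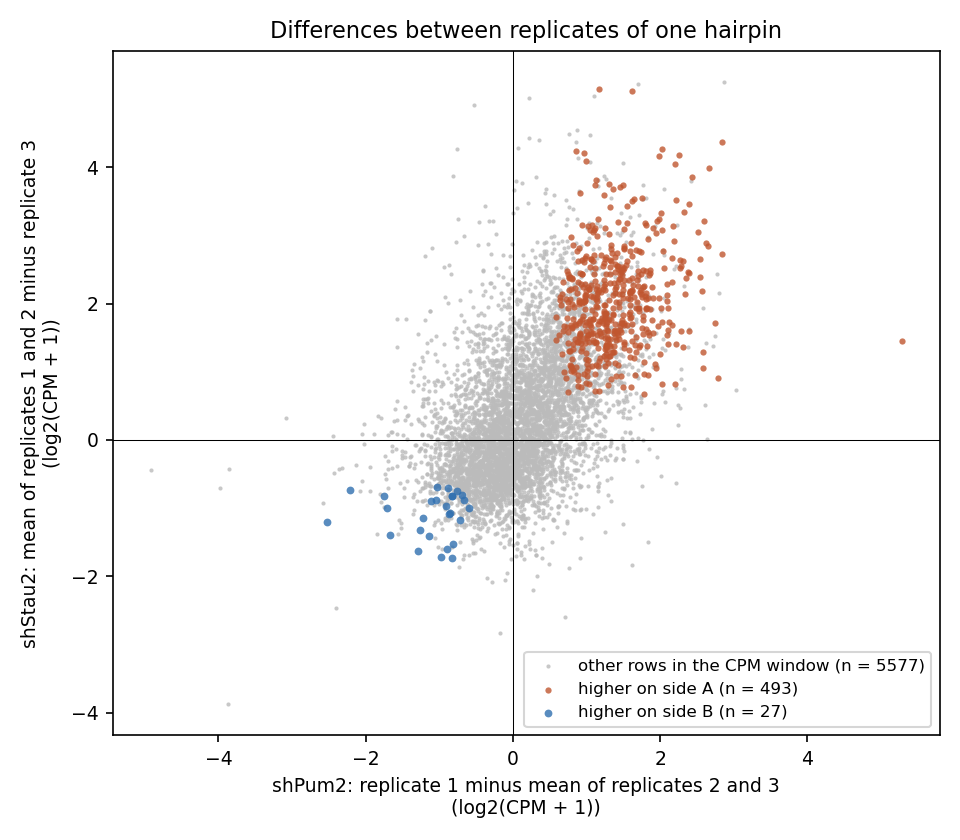
Each point is 1 of the 6097 rows with a mean of 10 or more but under 1000 CPM; the horizontal axis gives shPum2 replicate 1 minus the mean of replicates 2 and 3, and the vertical axis the mean of shStau2 replicates 1 and 2 minus replicate 3, both on the log2(CPM + 1) scale. Members higher on side A (orange) fill the upper right, with medians of 1.31 and 1.97, and the 27 members higher on side B (blue) the lower left, inside a cloud of other rows (grey) that runs along the same diagonal.

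Members higher on side A made up 8.09% of the rows in the CPM window, and members higher on side B 0.443%. Without the 1.5-fold margin, the sides did not overlap for 1371 rows higher on side A (22.5% of the window) and for 585 rows higher on side B (9.59%). The median gap, the lowest CPM of the higher side over the highest of the lower side, was 1.85 among members higher on side A and 1.59 among those higher on side B, and the widest gaps were 4.47 and 2.43. A gap of 2 or more was reached by 178 rows higher on side A and by 2 higher on side B. The members just inside the threshold had gaps of 1.502 and 1.515, and the rows just outside it 1.498 and 1.499, in the same order of direction.

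The imbalance between the directions depended on how the libraries were scaled. With TMM factors, which centre the libraries on the bulk of their rows, 254 rows were higher on side A and 128 on side B, so that the share higher on side A was 66.5% in place of 94.8%. With DESeq2 size factors the numbers were 290 and 92 (75.9%). These scalings also change the CPM values, so that 5344 and 5351 rows fell in the CPM window in place of 6097. With the 6097 rows kept, an alternative added after seeing the data, the numbers were 297 and 136 with TMM and 340 and 99 with DESeq2 size factors. The median difference of side A minus side B over the 6097 rows was 0.15 on the log2 scale with the library total, -0.10 with TMM and -0.05 with DESeq2 size factors. Under all 3 scalings 253 of the 493 and 23 of the 27 rows were members in the same direction. Leaving out 1 hairpin library loosens the rule, because fewer libraries must then be separated. Without shPum2 replicate 1, 2 or 3, the rows higher on side A numbered 742, 772 and 834 and those higher on side B 136, 119 and 43. Rows higher on side B numbered 85, 60 and 103 without shStau2 replicate 1, 2 or 3, and 12 when the most abundant row was counted in the library total.

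**Figure D3:**
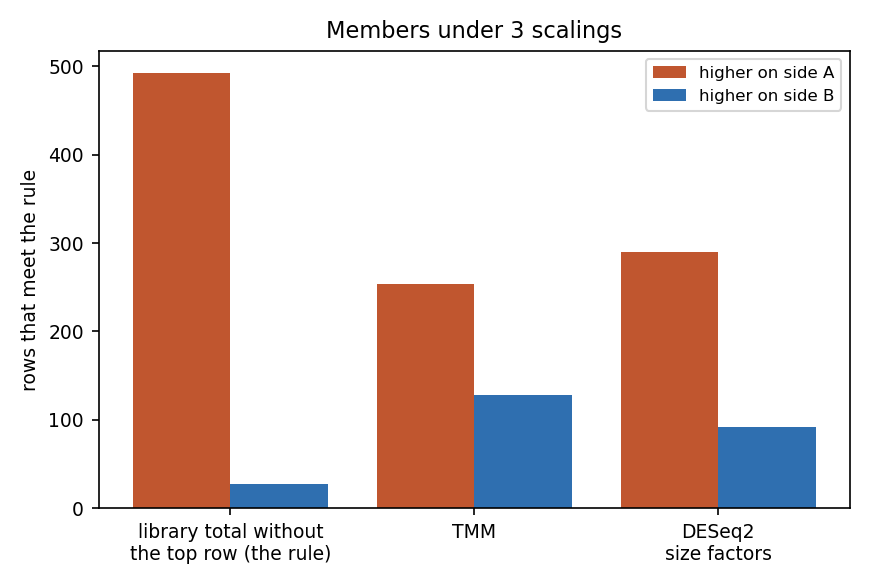
Number of rows that met the rule (vertical axis) when the libraries were scaled by the total without the most abundant row, by TMM factors or by DESeq2 size factors, with rows higher on side A in orange and on side B in blue. The orange bars stand at 493, 254 and 290 and the blue bars at 27, 128 and 92.

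Members were a like share of the rows at all levels within the window. Members higher on side A were 8.09% of the 3311 rows with a mean of 10 to 30 CPM, 7.76% of the 1920 rows with 30 to 100 CPM, 9.0% of the 600 rows with 100 to 300 CPM and 8.27% of the 266 rows with 300 to 1000 CPM. The median difference between the sides was 1.62, 1.54, 1.64 and 1.65 log2 units over the members of these classes, values that the 1.5-fold margin of the rule in part sets. Above the window, 6 of the 152 rows with a mean of 1000 CPM or more (3.95%) had sides at least 1.5 times apart and were higher on side A, and 0 were higher on side B. CPM is not per length, so these classes order rows by reads and not by transcripts.

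Depth limited the members at the low end. The median member higher on side A had 84 counts summed over side A, 28 over side B and 55 over the controls, and 30 of the 493 had fewer than 10 counts over side B. At least 100 counts on each side were held by 85 of the members higher on side A and by 5 of those higher on side B. A count of 0 in shStau2 replicate 3 was found for 11 of the 493 rows, and in shPum2 replicates 2 and 3 for 2 and 1 of them.

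The most abundant member higher on side A had at least 192 counts in each library. It stood at 1608 CPM in shPum2 replicate 1, 1279 in shStau2 replicate 1 and 1142 in shStau2 replicate 2. On side B it stood at 414 CPM in shPum2 replicate 2, 556 in shPum2 replicate 3 and 273 in shStau2 replicate 3. The control libraries were at 642, 893 and 1067 CPM, all between the sides. Its gap was 2.06 with the library total and 2.0 with TMM.

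The most abundant member higher on side B showed the reverse order. It stood at 947 CPM in shPum2 replicate 2, 970 in shPum2 replicate 3 and 889 in shStau2 replicate 3, against 520 in shPum2 replicate 1, 547 in shStau2 replicate 1 and 541 in shStau2 replicate 2. The controls were at 802, 702 and 529 CPM, the last of them within the range of side A. Its gap was 1.63 with the library total and 1.85 with TMM. These 2 rows were picked for their abundance after their values were seen.

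The members named by identifier are those with the widest gap among rows with 10 or more counts on the lower side, and they rest on fewer counts. ENSRNOG00000058386 stood at 44.4, 51.7 and 45.7 CPM in shPum2 replicate 1, shStau2 replicate 1 and shStau2 replicate 2. On side B it stood at 5.36 CPM in shPum2 replicate 2, 8.25 in shPum2 replicate 3 and 9.96 in shStau2 replicate 3, from 17 counts in all. The controls were tightly grouped at 34.7, 38.1 and 36.2 CPM, below all of side A and above all of side B. The ratio of the sides' summed counts, per count in the libraries, was 6.07 with an exact 95% counting interval of 3.61 to 10.8, which covers counting error only. The named rows were picked for a wide gap on these same counts. Their ratios above 1 were therefore set by the choice, and the intervals are no test of the sides.

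ENSRNOG00000017702 followed the same order with a wider spread on side A. Its level was 52.3 CPM in shPum2 replicate 1, 64.0 in shStau2 replicate 1 and 37.4 in shStau2 replicate 2, against 8.05, 8.25 and 8.54 CPM in shPum2 replicate 2, shPum2 replicate 3 and shStau2 replicate 3. The controls stood at 23.1, 22.9 and 36.2 CPM, between the sides. The ratio of summed counts was 6.20 (exact 95% counting interval 3.74 to 10.8), from 107 counts against 18.

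Among rows higher on side B, ENSRNOG00000059857 stood at 17.4 CPM in shPum2 replicate 2, 16.5 in shPum2 replicate 3 and 18.5 in shStau2 replicate 3. It stood at 6.34, 6.81 and 4.15 CPM in shPum2 replicate 1, shStau2 replicate 1 and shStau2 replicate 2. The controls were spread, with 8.68 and 13.7 CPM between the sides and 18.9 CPM above every side B library. The ratio of summed counts was 3.04 (exact 95% counting interval 1.55 to 6.39), from 38 counts against 12.

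For ENSRNOG00000048736 the side B libraries stood at 22.8 CPM in shPum2 replicate 2, 22.0 in shPum2 replicate 3 and 17.1 in shStau2 replicate 3. The side A libraries stood at 6.34, 8.17 and 4.15 CPM, in the order shPum2 replicate 1, shStau2 replicate 1 and shStau2 replicate 2. The controls, at 23.1, 7.62 and 18.9 CPM, ran from within the range of side A to above every side B library. The ratio of summed counts was 3.32 (exact 95% counting interval 1.76 to 6.71), from 45 counts against 13. All 4 named rows met the rule under TMM and DESeq2 size factors as well.

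**Figure D4:**
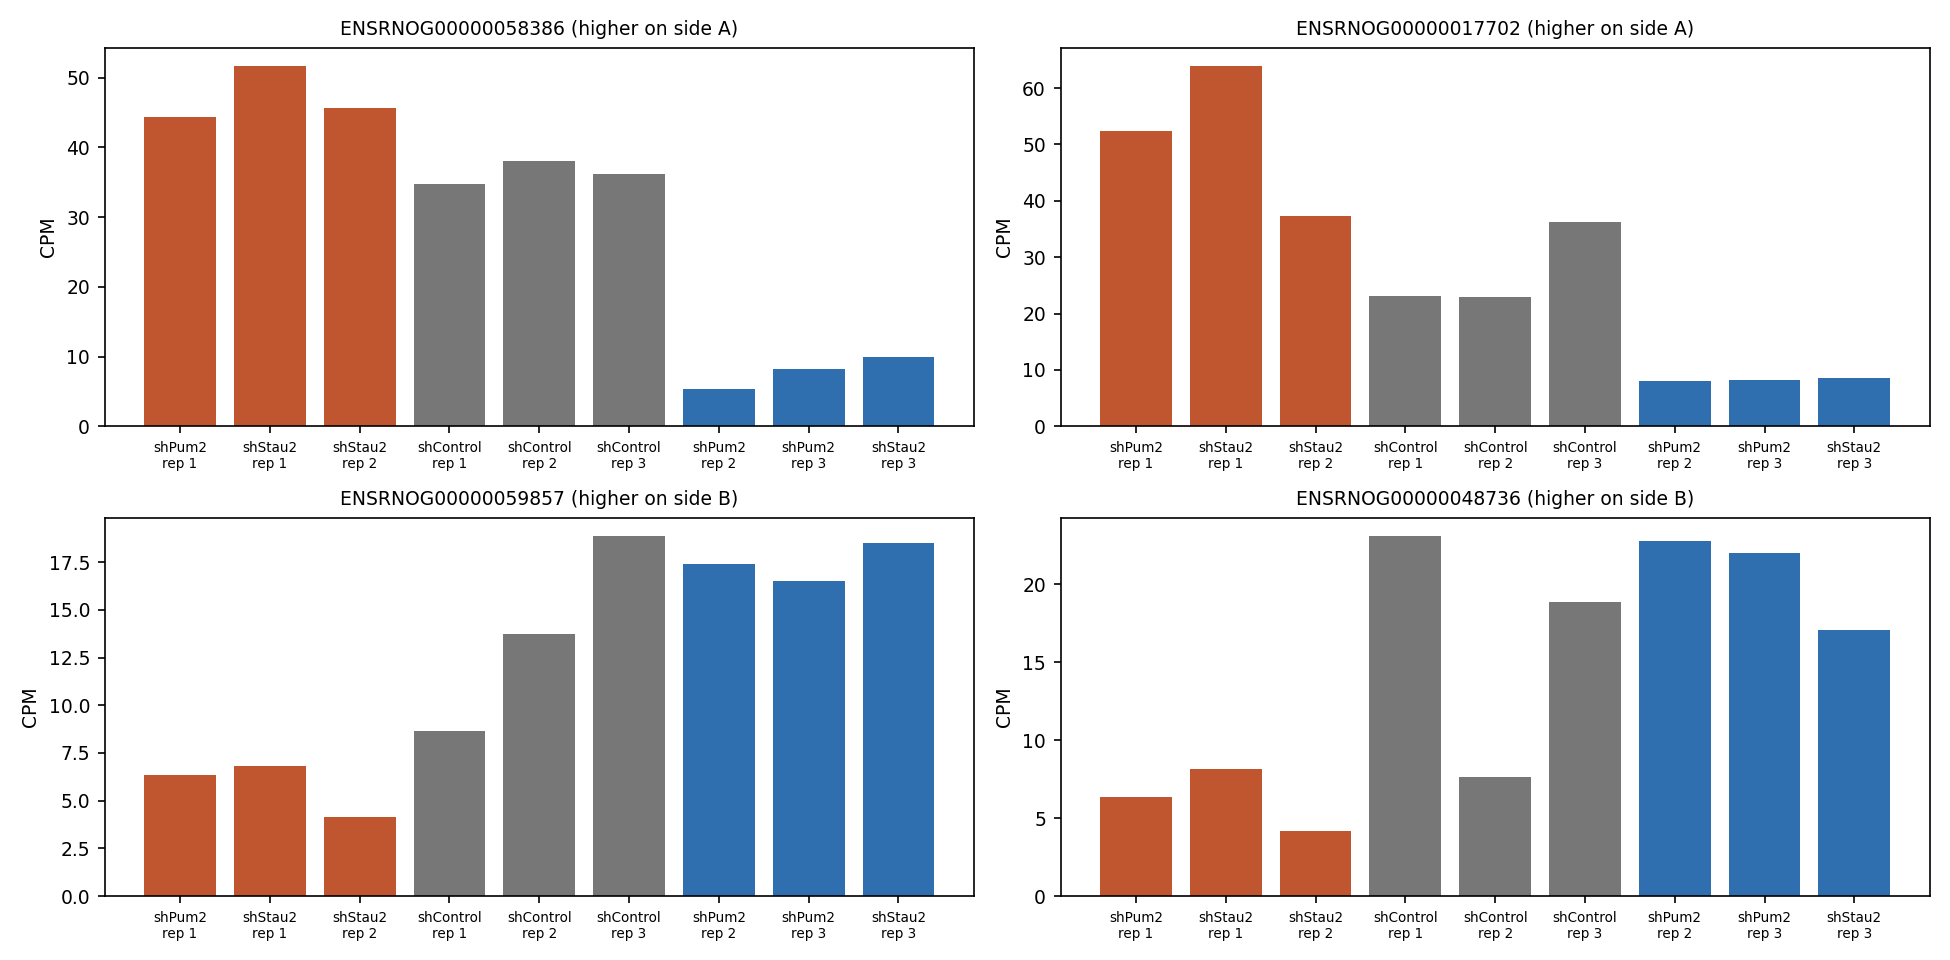
CPM of the 4 named members (vertical axis, from 0) in each of the 9 libraries, side A in orange, shControl in grey and side B in blue, 1 bar per library. In the upper panels all grey bars lie above the blue ones, and in the lower panels the grey bars spread from 8.68 to 18.9 CPM (left) and from 7.62 to 23.1 CPM (right).

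The shControl libraries did not enter the split, except through the mean over 9 libraries that set the CPM window. For members higher on side A the typical control level lay between the sides and nearer to side A, though each library was scattered: shControl replicates 1 and 3 lay between the sides for 276 and 296 of the 493 rows, and replicate 2 for 227, with 185 rows within the range of side A and 55 above it. On a scale where 0 is the mean log2 level of side B and 1 that of side A, the median member had shControl replicate 1 at 0.61, replicate 2 at 0.81 and replicate 3 at 0.65 (median of the control mean 0.67, quartiles 0.53 and 0.80), and the control mean was nearer to side A for 382 of the 493 rows, where 59.9% of all rows in the window had it nearer to side A. All 3 controls exceeded every side B library for 334 of the 493 rows, where 16.1% of all rows in the window did so. They were all below every side A library for 170 rows, where 7.81% of the window did so. Since the rule picks rows with a high side A and a low side B, part of these counts is built in. All 3 controls lay strictly between the sides for 96 rows, where 1.87% of the window had them below every side A and above every side B library. They were all at or above the lowest side A library for 35 rows (47.2% of the window) and all at or below the highest side B library for 4 (43.1% of the window), counts that the separation of the sides keeps low.

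For the 27 rows higher on side B, the controls lay between the sides or scattered around them, with side A the lower side there. The median positions on the same scale were 0.47, 0.70 and 0.76 for shControl replicates 1, 2 and 3 (median of the control mean 0.60), and the control mean was nearer to side A for 17 of the 27, a share near the 59.9% of the window. In other settings the rows higher on side B were chosen again by the rule. The median position of the control mean was 0.34 over the 136 rows found without shPum2 replicate 1. It was 0.26 for the 2 rows with a gap of 2 or more. All 3 controls were below every side B library for 13 of the 27 (6.94% of the window) and above every side A library for 11 (5.76% of the window). The median position of the control mean was also under 0.5 over the 60 rows found without shStau2 replicate 2 (0.468) and the 29 found without shControl replicate 2 (0.498). The controls thus had no stable side across these settings, in which the rows changed as well.

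**Figure D5:**
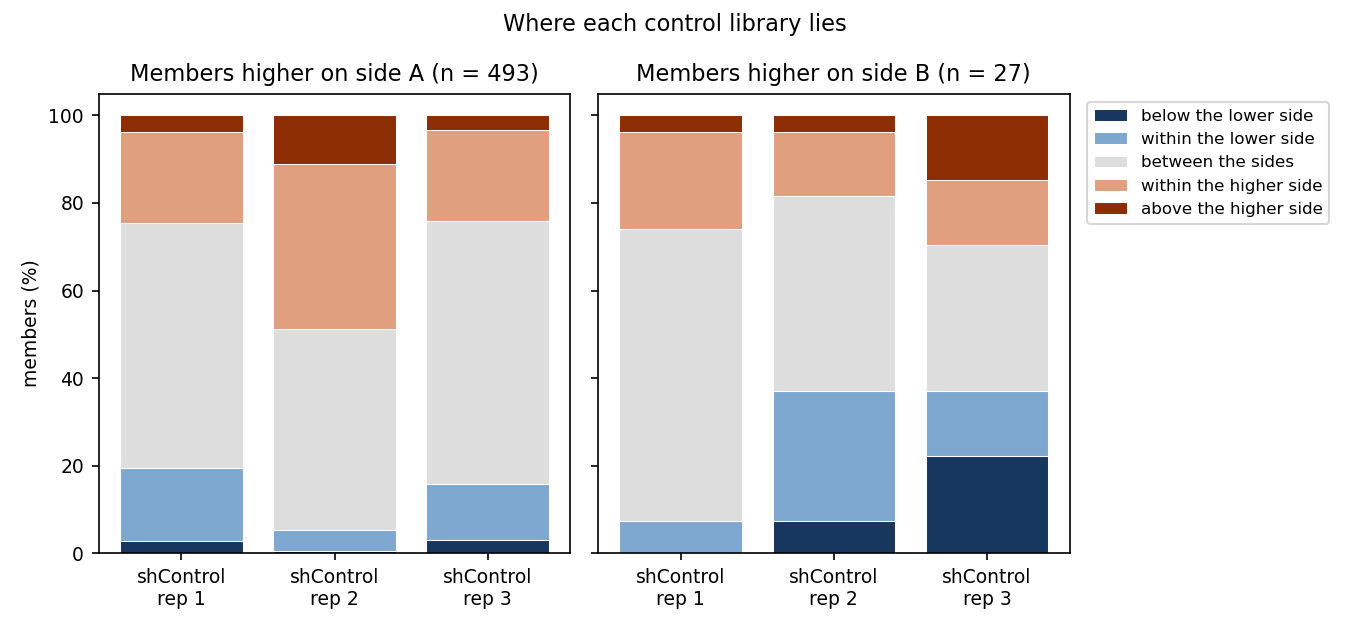
Share of members (vertical axis, in %) for which each shControl library lay below, within, between or above the ranges of the sides, for the 493 members higher on side A (left) and the 27 higher on side B (right); the higher side is side A on the left and side B on the right. On the left 227 to 296 of the 493 rows fall between the sides, and shControl replicate 2 has the largest part at or above the lowest side A library.

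The rule did not use differences between the control libraries. The median difference between shControl replicates 2 and 1 had opposite signs in the 2 directions. Over the members higher on side A, replicate 2 exceeded replicate 1 by a median of 0.29 log2 units and was higher for 353 of 493 rows, while over all rows in the window the median was 0.07 and the share 57.1%. Over the 27 rows higher on side B the median of the same difference was -0.19, and replicate 2 was higher for 11. The opposite signs held with TMM (0.17 and -0.32, with -0.04 over the window) and with DESeq2 size factors (0.16 and -0.32, with -0.05 over the window). By abundance, this difference was 0.43, 0.23, 0.21 and 0.34 over the members higher on side A with 10 to 30, 30 to 100, 100 to 300 and 300 to 1000 CPM, against 0.13, 0.07, 0.05 and 0.00 over all rows of those classes.

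Replicates 3 and 1 also had medians of opposite sign under all 3 scalings, the first of them near 0 with the library total. For replicates 2 and 3 the signs were opposite with TMM and DESeq2 size factors only. Replicate 2 minus replicate 3 had a median of 0.27 over the members higher on side A and 0.10 over those higher on side B, against 0.19 over the window. With TMM the medians were 0.04 and -0.12, against -0.04. With DESeq2 size factors they were 0.05 and -0.105, against -0.02. Replicate 3 minus replicate 1 had a median of 0.01 and -0.33, against -0.09 over the window, with TMM 0.12 and -0.21, against 0.02, and with DESeq2 size factors 0.09 and -0.24, against -0.01. The pairs were examined after the values were seen, they compare libraries of 1 group with no replicate of their own, and they were not tested. The median range of the 3 controls was 0.72 log2 units over members higher on side A and 0.67 over all rows in the window. In the hairpin groups the median SD over those members was 0.79 in shPum2 and 1.17 in shStau2, values that the rule set, and 0.38 in shControl.

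The comparisons of the hairpins with shControl asked which transcripts changed when Pumilio2 or Staufen2 was targeted. No member passed in either (edgeR quasi-likelihood test, Benjamini-Hochberg adjusted p under 0.05 over 5697 rows), with 465 of the 493 and 24 of the 27 rows kept by the filter on low counts. In shPum2 against shControl 0.0176% of all rows tested were called, and the lowest adjusted p among the members was 0.42. In shStau2 against shControl 0.878% were called, and the lowest adjusted p among the members was 0.13. DESeq2 called 0 members in each of these comparisons as well, out of 1 and 82 calls over all rows. Members vary between replicates by choice, which widens their error: the median standard error of the log2 difference from shControl in shPum2 was 0.51 for members higher on side A and 0.40 over all rows tested.

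At an unadjusted p under 0.05, the members higher on side A that passed were mostly lower in shPum2 and higher in shStau2. In shPum2 against shControl 12 of the 465 were lower (2.58%, where 1.12% of all rows tested were) and 0 were higher (0.843% of all rows). In shStau2 against shControl 12 were higher (2.58%, where 4.42% of all rows were) and 1 was lower (6.93% of all rows). Of the 24 rows higher on side B, 0 passed in shPum2 and 1 was lower in shStau2 (4.17%, where 6.93% of all rows were). In the edgeR fit, the median log2 difference from shControl of the members higher on side A was -0.31 in shPum2 and 0.16 in shStau2, against -0.01 and 0.04 over all rows tested. For those higher on side B it was 0.32 in shPum2 and 0.16 in shStau2. Both comparisons share the control libraries, and side A holds 1 of the shPum2 and 2 of the shStau2 libraries. The choice of members therefore bears on the directions of the counts at an unadjusted p and on these medians. It favours lower values in shStau2 for rows higher on side B. On the log2(CPM + 1) scale with the library total, the median of the shStau2 mean minus the control mean was -0.12 over the members higher on side A. It was -0.06 over those higher on side B and -0.11 over all rows in the window. The sign of the shStau2 medians thus differed between the 2 measures. For shPum2 the medians on that scale were -0.43 and 0.27, against -0.03 over the window.

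The third comparison, shPum2 against shStau2, had 0.807% of all rows called and 0 members (edgeR quasi-likelihood test, lowest adjusted p among the members 0.12). DESeq2 called 1 member, out of 79 calls over 3522 rows that held 261 members higher on side A and 11 higher on side B. At an unadjusted p under 0.05, 37 of the 465 rows higher on side A were lower in shPum2 (7.96%, where 4.79% of all rows were) and 1 of the 24 higher on side B was higher (4.17%, where 6.49% of all rows were). With 1 side A library in shPum2 and 2 in shStau2, this direction too follows from the choice.

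In shPum2 against shStau2 and in shStau2 against shControl, the number of members called was largest when shStau2 replicate 3 was left out. Calls over all rows rose as well, from 46 to 270 and from 50 to 112 in the same order. Without that library edgeR called 43 members in shPum2 against shStau2, all of them rows higher on side A that were lower in shPum2, out of 270 calls over all rows (8.32% of the 517 members tested, where 4.26% of the 6334 rows tested were called). It called 6 members in shStau2 against shControl, all higher on side A and higher in shStau2, out of 112 calls (1.16% of the members, where 1.77% of all rows were called). In shPum2 against shControl it called 1 member out of 4 calls (0.193%, where 0.0632% of all rows were called). Without shPum2 replicate 1 there was 1 member called in each of the comparisons with shControl and 0 between the hairpins. Over all 6226 rows tested there, 2 were called in shPum2 against shControl, 55 in shStau2 against shControl and 32 between the hairpins. Leaving out shStau2 replicate 3 makes the shStau2 group all side A, so these calls again follow the split that chose the rows.

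The library measures that could move with the split were set beside it. The most abundant row took 12.0% to 20.3% of the gene counts on side A, 12.5% to 23.9% on side B and 18.9% to 29.8% in the controls, so the sides overlapped. They overlapped as well in gene counts, in reads listed, and in the shares of unmapped, multimapping, no-feature and ambiguous reads. Rows with at least 10 counts overlapped too, with 5214 to 5854 on side A and 4312 to 5237 on side B. The number of rows with at least 1 count did not overlap: it was 12913 to 13510 on side A, 11567 to 12587 on side B and 12390 to 13030 in the controls. Drawn down to 630694 counts without the most abundant row, the expected numbers were 12912, 13188 and 12775 on side A, 12189, 12286 and 11330 on side B, and 12384, 12947 and 12373 in shControl replicates 1, 2 and 3. Its part in the member levels was not tested.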

How the data were processed

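Per the labels' protocols, the mRNA was selected by its poly(A) tail from TRIzol extracts and libraries were directional. The submitters' processing notes name bcl2fastq 2.19.1.403 and STAR 2.6.1a. Which genome build, annotation release and strand setting were used is not given in the sources used here. The authors deposited raw counts of reads per gene row, 1 file per library. The 4 rows that name no gene hold 97.9% to 98.2% of the reads listed and were kept out of totals and tests.

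Members and lists were chosen with earlier results of these data known. The rule was applied in Python 3.11.15 with pandas 2.3.3. Positions and differences used log2(CPM + 1). The 2 members named in each direction had the widest gap among those with 10 or more counts on the lower side. The test was edgeR 4.0.16 (R 4.3.3) with filterByExpr, TMM factors and a quasi-likelihood fit of all 9 libraries, 1 coefficient per group, two-sided, with Benjamini-Hochberg adjustment over 5697 rows. The scripts were tested on simulated data. Alternatives were other scalings and filters, DESeq2 1.42.0, fits of only the groups compared, a replicate block and each library left out. Gene counts of 779386 to 979550 per library limit the precision.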

Additional observations from a re-analysis of the deposited data

How the results depend on the processing

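Rows higher on side A numbered 493 with the rule as given, 254 with TMM (297 with the rows of the window kept), 290 with DESeq2 size factors, 178 with sides 2 times apart, 1019 with no lower bound on mean CPM, and 486 to 834 with 1 library left out. Rows higher on side B numbered 27, and 12 with all gene rows in the library total, 128 with TMM, 92 with DESeq2 size factors (136 and 99 with the rows of the window kept), 2 with sides 2 times apart, 97 with no lower bound, and 28 to 136 with 1 library left out. The position of shControl was computed over the rows that met the rule in each setting, so the rows changed between settings. Among rows higher on side A it stayed between 0.578 and 0.734 with 1 library left out. It moved by less than the spread of the control libraries in 12 of 12 alternatives. Among rows higher on side B it was 0.604, and 0.261 with sides 2 times apart and 0.343 to 0.695 with 1 library left out. Members called by edgeR numbered 0 in each comparison. With no filter on low counts they numbered 1 in shPum2 against shControl, 3 in shStau2 against shControl and 4 in shPum2 against shStau2. Over all 16975 rows tested in that setting, 8, 89 and 103 were called in the same order. In shPum2 against shControl 1 member was called when only the 2 groups were fitted, out of 4 calls over 5240 rows. In shPum2 against shStau2 DESeq2 called 1 member, out of 79 calls over 3522 rows. With 1 library left out the members called ranged from 0 to 1 in shPum2 against shControl, 0 to 6 in shStau2 against shControl and 0 to 43 in shPum2 against shStau2. With the replicate block 1, 1 and 0 members were called, out of 3, 83 and 81 calls over all rows in place of 1, 50 and 46. The numbers were not taken to pair the libraries, since correlations of same-numbered libraries' deviations from their group means ran from -0.25 to 0.53. Between the targeting hairpins they were 0.53 for replicates 1, both on side A, and 0.48 for replicates 3, both on side B. For replicates 2, on opposite sides, the correlation was -0.08. Between shPum2 replicate 1 and shStau2 replicate 2, both on side A, it was 0.41. Between shPum2 replicate 2 and shStau2 replicate 3, both on side B, it was 0.26. The remaining pairs of the targeting hairpins lay on opposite sides. The correlation was -0.60 for shPum2 replicate 1 with shStau2 replicate 3 and -0.43 for shPum2 replicate 3 with shStau2 replicate 2. With shStau2 replicate 1 it was -0.32 for shPum2 replicate 2 and -0.33 for shPum2 replicate 3. Deviations from a group mean are tied to each other, and the sides were chosen on these same values. Whether the replicate number bears on the split was not tested. For the 4 named rows the ratio of summed counts stayed inside its counting interval in the 9 alternatives that can change it, each. Apart from the change of construction when a library is left out or a bound is moved, the cause of these shifts was not tested. Depth limits the rows with few counts: 30 members had under 10 counts over side B.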
